A study of Mus musculus with 9 samples.

Results

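The interleukin-1 family transcripts described here are 9 genes, chosen by symbol from the 31274 entries of an FPKM table of the mouse uterus. They comprise 5 agonist cytokines (Il1a, Il1b, Il18, Il33 and Il1f8), the receptor antagonist Il1rn, and the receptor chains Il1r1, Il1rap and Il1rl1. All 9 symbols were found, and 5 of the 9 passed the expression filter (mean FPKM above 1 in at least 1 genotype) that 14728 entries passed. RNA-Seq was performed on whole uteri of C57BL/6 mice on pseudopregnancy day 4.5, with 1 library per mouse from 4 control mice (Wnk1fl/fl, given as Wnk1f/f in the labels) and 5 mice with uterine ablation of Wnk1 (Wnk1d/d). Both genotypes carried the floxed Wnk1 allele, whose exon 2 is removed by Cre. The controls are given without a Cre allele, so carrying Cre and losing Wnk1 cannot be told apart in any comparison here. In Wnk1d/d mice Cre was driven by the progesterone receptor gene, so that cells without that receptor, among them immune and endothelial cells, kept Wnk1, and other tissues that make the receptor could lose it. Pseudopregnancy, brought about by mating with vasectomized males, gave uteri without embryos.

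Interleukin-1 alpha and beta bind a shared receptor, IL1R1, which recruits the accessory chain IL1RAP and signals through MYD88 to NF-kB. The antagonist encoded by Il1rn occupies IL1R1 without recruiting the accessory chain. IL-33 binds the ST2 receptor (Il1rl1), which is abundant on mast cells, and the IL-36 cytokines, among them the product of Il1f8 (also called Il36b), bind the receptor encoded by Il1rl2. In the uterus these cytokines are known as mediators of inflammation and of exchange between embryo and endometrium around implantation.

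Most of the genes lie in clusters on the genome build GRCm38.p6 (the assembly of mm10, RefSeq annotation). Il1a (chr2:129299609-129310186, minus strand) and Il1b (chr2:129364569-129371164, minus strand) are 54.4 kb apart. Il1f8 (chr2:24153172-24160103, plus strand) and Il1rn (chr2:24336860-24351491, plus strand) bound a stretch of 198.3 kb with 6 family genes. Il1r1 and Il1rl1 are among 6 receptor genes within 467.0 kb of chromosome 1. Il18 is on chromosome 9, Il1rap on chromosome 16 and Il33 on chromosome 19. Shown next are the 250 bases upstream of an annotated transcript start of Il1a and Il1b, the 2 agonists of IL1R1 whose mean levels differed in opposite directions, and of Il1f8, the member with the largest fitted fold change. Each runs 5′ to 3′ on the strand of the gene. Capitals mark matches to the TATA box (TATAAA) and the AP-1 motif (TGANTCA), both searched on both strands.
Il1a, chr2:129309973-129310222, minus strand: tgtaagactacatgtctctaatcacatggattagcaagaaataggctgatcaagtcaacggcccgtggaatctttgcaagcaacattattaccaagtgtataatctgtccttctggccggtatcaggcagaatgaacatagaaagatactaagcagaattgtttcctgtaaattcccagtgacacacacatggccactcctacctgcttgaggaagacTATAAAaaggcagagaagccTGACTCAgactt
Il1b, chr2:129371140-129371389, minus strand: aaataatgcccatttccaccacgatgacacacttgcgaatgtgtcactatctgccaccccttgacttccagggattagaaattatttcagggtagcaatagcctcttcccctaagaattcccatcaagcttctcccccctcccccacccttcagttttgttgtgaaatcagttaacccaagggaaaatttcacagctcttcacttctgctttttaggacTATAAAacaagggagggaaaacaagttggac
Il1f8, chr2:24152922-24153171, plus strand: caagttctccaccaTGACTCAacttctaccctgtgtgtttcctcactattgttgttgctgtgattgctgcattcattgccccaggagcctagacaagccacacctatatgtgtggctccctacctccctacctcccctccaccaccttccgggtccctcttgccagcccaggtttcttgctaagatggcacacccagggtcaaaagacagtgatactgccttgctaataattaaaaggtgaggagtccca

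The windows of Il1a and Il1b each hold TATAAA, starting at -32 and -31 from the transcript start. The AP-1 motif was matched at -12 of Il1a and at -236 of Il1f8, and not in the window of Il1b. Among all 14 windows of the 9 members searched, it was also matched at -141 of Il1rn. Motifs of FOXO, CRE and NF-kB were searched too, without a match in the windows shown. In windows of other members FOXO was matched at -117 of Il1rl1 and -162 of Il33, and NF-kB at -232 of Il1r1. Of 32851 windows of this length upstream of transcript starts, 12.4% held a TATA box match and 6.75% an AP-1 match. A FOXO match was held by 3.17% and an NF-kB match by 7.25%. A match describes these letters and not binding.

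Levels of the members, which FPKM expresses per length, spanned a wide range. Il1r1, the signalling receptor, and Il18, a cytokine released after cleavage by caspase-1, were the most abundant in both genotypes. In Wnk1fl/fl uteri the order of mean FPKM was Il1r1 (14.1), Il18 (13.8), Il1f8 (4.17), Il1rap (2.99), Il33 (1.65), Il1b (0.888), Il1rl1 (0.400), Il1a (0.315) and Il1rn (0.285). Neighbours in this order did not overlap between libraries only at the steps from Il18 to Il1f8 and from Il33 to Il1b. In Wnk1d/d uteri the order was Il18 (14.9), Il1r1 (11.9), Il1f8 (7.89), Il1rap (2.36), Il33 (0.970), Il1a (0.832), Il1b (0.602), Il1rl1 (0.548) and Il1rn (0.324), with steps free of overlap from Il1f8 to Il1rap and from Il1rap to Il33. Il1a was eighth among controls and sixth in Wnk1d/d uteri, although its values overlapped those of its neighbours in both.

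**Figure D1:**
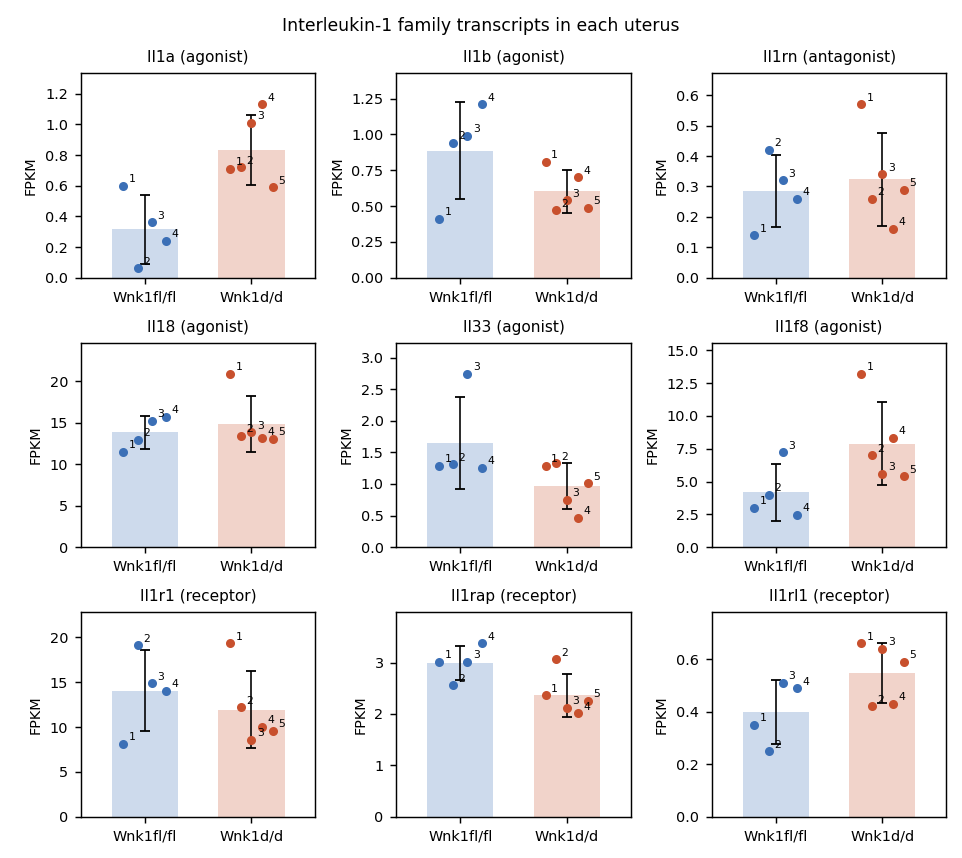
FPKM of the 9 members in each library, with points numbered by replicate, bars at the mean and lines at 1 SD (n = 4 Wnk1fl/fl and n = 5 Wnk1d/d). The genotypes overlap in all 9 panels, and Wnk1d/d replicate 1 is the highest Wnk1d/d library for 6 members.

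Genotypes were compared with limma on log2(FPKM + 1), with Benjamini-Hochberg adjustment over all 14728 genes. A gene was called differentially expressed (DEG) when its adjusted p was under 0.05 and its mean FPKM differed by 1.5-fold or more. By limma 0 of the 5 members tested were DEGs, against 10.3% of all genes tested (5.09% higher and 5.18% lower in Wnk1d/d). The adjusted p alone was under 0.05 for 0 of the 5 and for 22.1% of all genes tested. Of the 5 members, 2 (Il1f8 and Il1rap) had an unadjusted limma p under 0.05, with limma adjusted p = 0.077 and 0.12. The share of all genes tested with such an unadjusted p was not counted. It is no less than the 22.1% that passed after adjustment, so this count is not read as a result about the members. The exact two-sided permutation test, run on each of the 9 members without adjustment, gave a p under 0.05 for 1 (Il1a). This test cannot go below 0.007937 with 4 and 5 libraries. It was not run over all genes, so no share over all genes can be set beside its count. The libraries of the genotypes did not separate for any of the 5 tested members, while they separated for 19.9% of all genes tested. The median log2 fold change was -0.217 over the 5 members and 0.003 over all genes tested. In RNA of whole uteri, fewer cells of a type and less RNA per cell cannot be told apart.

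Il1a, an agonist that is active without cleavage and acts as an alarm signal of damaged cells, had the largest ratio of means among the members. Its FPKM was 0.60, 0.06, 0.36 and 0.24 in Wnk1fl/fl replicates 1 to 4. In Wnk1d/d replicates 1 to 5 it was 0.71, 0.72, 1.01, 1.13 and 0.59. Of the 5 Wnk1d/d libraries, 4 were above every control, and replicate 5 was 0.59 against 0.60 in the highest control. The means were 0.315 ± 0.227 (SD, n = 4) and 0.832 ± 0.227 (SD, n = 5), a ratio of 2.64, and the exact permutation test gave p = 0.0159. Leaving out any 1 of Wnk1d/d replicates 1 to 4 gave p = 0.0571 by the same exact test. With 4 and 4 libraries that test is coarser and cannot go below 0.0286. The log2 difference was then 0.508, 0.506, 0.45 and 0.429 in turn, against 0.486 with all libraries. Il1a was below the filter, and in a limma fit without the filter its log2 fold change was 0.49 (standard error 0.13, limma adjusted p = 0.039). These levels are below 1 FPKM, and the lncRNA gene Gm14023 shares 8218 bases with Il1a. Shared bases, here and below, are of whole gene spans with introns, and not of exons alone. Whether counting used strand is not given in the sources used here, so how far reads of the pair are mixed is unknown.

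Il1b, the agonist made as an inactive precursor mainly by myeloid cells, had FPKM values of 0.41, 0.94, 0.99 and 1.21 in the 4 control uteri. The Wnk1d/d values were 0.81, 0.47, 0.54, 0.70 and 0.49. Of the controls 3 were above every Wnk1d/d library, and control replicate 1 was the lowest of all 9. The means were 0.888 ± 0.339 (SD, n = 4) and 0.602 ± 0.147 (SD, n = 5), with an exact permutation p = 0.143 and a 95% interval of the log2 fold change from -0.51 to 0.07 in the fit without the filter. Without that control the exact permutation p was 0.0357, and without each of the other libraries in turn it was 0.143 to 0.321, with a log2 difference of -0.14 without control replicate 4 against -0.22 with all libraries. Il1b shares 1263 bases with the lncRNA gene Il1bos, which was listed at 0.09 to 0.18 FPKM in controls and 0.14 to 0.31 in Wnk1d/d uteri.

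The antagonist gene Il1rn, measured at 0.14, 0.42, 0.32 and 0.26 FPKM in controls, was at 0.57, 0.26, 0.34, 0.16 and 0.29 in Wnk1d/d uteri. The highest value and the next to lowest were both in Wnk1d/d libraries. Means were 0.285 ± 0.117 (SD, n = 4) and 0.324 ± 0.152 (SD, n = 5), with an exact permutation p = 0.698 and a 95% interval of the log2 fold change from -0.16 to 0.25.

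Within each uterus the antagonist was also set against its agonists. The ratio of Il1rn to the sum of Il1a and Il1b had a median of 0.208 in controls (0.139 to 0.420) and 0.219 in Wnk1d/d uteri (0.0874 to 0.375). The mean log2 ratio differed by -0.077 (Wnk1d/d minus Wnk1fl/fl), against an SD within genotypes of 0.741. The sum of both agonists was 1.2 ± 0.232 FPKM in controls and 1.43 ± 0.301 in Wnk1d/d uteri. Its composition differed more: Il1a over Il1b was 1.46, 0.0638, 0.364 and 0.198 in the 4 controls and 0.877, 1.53, 1.87, 1.61 and 1.2 in the 5 Wnk1d/d uteri. Control replicate 1 lay among the Wnk1d/d values, and the other 3 controls were below all of them. Taken singly, the agonists gave ratios that differed in opposite directions. Il1rn over Il1b had a median of 0.332 in controls and 0.592 in Wnk1d/d uteri, with 4 of 5 Wnk1d/d libraries above every control and a difference of 0.657 in mean log2 ratio. Il1rn over Il1a had a median of 0.986 in controls and 0.361 in Wnk1d/d uteri, with a difference of -1.604. Control replicate 2, with 0.06 FPKM of Il1a, had a ratio of 7.0, and without it the difference was -0.722. These ratios were formed after the levels were known and were not tested.

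**Figure D2:**
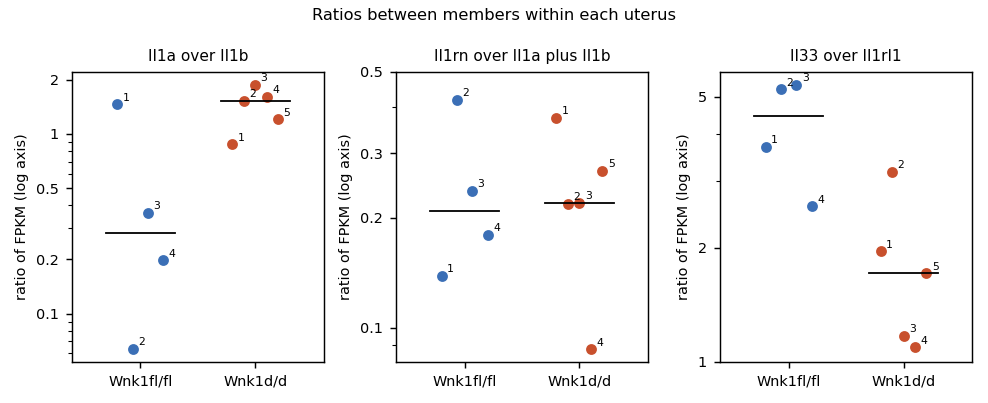
Ratios of FPKM between members within each library (log axes, points numbered by replicate, lines at the median). Il1a over Il1b is higher in most Wnk1d/d uteri (median 1.53 against 0.281), Il1rn over both agonists overlaps widely, and Il33 over Il1rl1 is below every control in 4 of 5 Wnk1d/d uteri.

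Il1f8, an IL-36 cytokine made by epithelia, had the largest fitted fold change of the members tested. Its FPKM was 3.02, 3.97, 7.23 and 2.45 in controls. In Wnk1d/d uteri it was 13.19, 6.99, 5.57, 8.32 and 5.39. Every Wnk1d/d library was above 3 of the 4 controls, and 2 were above control replicate 3 as well. The means were 4.17 ± 2.14 (SD, n = 4) and 7.89 ± 3.19 (SD, n = 5), a ratio of 1.89, with a log2 fold change of 0.80 (standard error 0.29, 95% interval 0.14 to 1.46, limma adjusted p = 0.077). Leaving out control replicate 3 brought it past the threshold (log2 fold change 1.05, limma adjusted p = 0.0283), and the fits without other single libraries went down to 0.62 (limma adjusted p up to 0.192). The epithelial markers, 3 of 12 of which were DEGs, all higher, had summed levels of 1184 to 1755 FPKM in controls and 1340 to 2029 in Wnk1d/d uteri, highest in Wnk1d/d replicate 1, where Il1f8 was also highest. Krt8, a keratin of this list, averaged 88.9 and 102 FPKM (limma adjusted p = 0.51). The part of the epithelial markers in the Il1f8 values was not tested.

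The other IL-36 genes were measured beside it. Il1f6 (Il36a), an agonist of the same receptor, was 2.2, 0.41, 0.59 and 2.94 FPKM in controls and 10.43, 8.03, 6.34, 4.0 and 1.02 in Wnk1d/d uteri. All but replicate 5 of the Wnk1d/d libraries were above every control. Its log2 fold change was 1.38 (standard error 0.51, limma adjusted p = 0.079), and without Wnk1d/d replicate 5 it was 1.77 (limma adjusted p = 0.0231). Without other single libraries it went down to 1.14 (limma adjusted p up to 0.169), and with library weights it was 0.85 (limma adjusted p = 0.289). The receptor gene Il1rl2 averaged 4.97 and 3.38 FPKM (log2 fold change -0.44, limma adjusted p = 0.094). Its limma adjusted p was 0.0389 with library weights, where it was not a DEG, and 0.0583 to 0.226 without single libraries. Il1f9 (Il36g) and Il1f5, which encodes the antagonist of that receptor, were below the filter, with means of 0.185 and 0.254 FPKM for Il1f9 and of 0.108 and 0.0960 FPKM for Il1f5. Among 12 squamous epithelial markers, 0 of 2 tested were DEGs by limma. The keratins Krt5 (0.07 to 0.15 FPKM in controls and 0.28 to 0.50 in Wnk1d/d uteri) and Krt14 (0.07 to 0.35 and 0.44 to 1.46 FPKM), both below the filter, were higher in every Wnk1d/d library, whereas Trp63, which encodes the basal cell factor p63, was lower in every one (0.37 to 1.03 and 0.07 to 0.35 FPKM). The summed level of the list was 7.27 to 18.0 FPKM in controls and 11.9 to 39.7 in Wnk1d/d uteri, highest in Wnk1d/d replicate 1, where Il1f6 and Il1f8 were also highest. Most of this sum was the keratin Krt10, which averaged 8.44 and 15.7 FPKM and overlapped between genotypes (limma adjusted p = 0.21). The part of the squamous markers in the Il1f6 and Il1f8 values was not tested.

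Il33, an alarm cytokine kept in the nucleus of stromal, epithelial and endothelial cells, was at 1.29, 1.31, 2.74 and 1.26 FPKM in controls. The Wnk1d/d values were 1.29, 1.33, 0.75, 0.47 and 1.01. In Wnk1d/d replicates 3, 4 and 5 Il33 was below every control, and replicates 1 and 2 were level with 3 of the controls. The log2 fold change was -0.41 (standard error 0.20, 95% interval -0.85 to 0.03, limma adjusted p = 0.15). Without control replicate 3, the highest library, it was -0.24 (limma adjusted p = 0.33). Of 10 endothelial markers 8 were DEGs, all lower in Wnk1d/d, with summed levels of 554 to 605 FPKM in controls and 237 to 456 in Wnk1d/d uteri. Among them Cdh5 averaged 87.8 and 44.5 FPKM (limma adjusted p = 0.0094). Of 10 stromal markers 2 were DEGs higher in Wnk1d/d (the matrix genes Lum and Col1a1) and 2 lower (the growth factor receptor gene Pdgfra and the homeobox gene Hoxa11), and 9 had an adjusted p under 0.05 by limma. The summed stromal level overlapped, at 2828 to 3332 FPKM in controls and 2896 to 3566 in Wnk1d/d uteri. The part of these cell types in the Il33 values was not tested.

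Il1rl1, the IL-33 receptor, was at 0.35, 0.25, 0.51 and 0.49 FPKM in controls and at 0.66, 0.42, 0.64, 0.43 and 0.59 in Wnk1d/d uteri. Of the Wnk1d/d libraries 3 were above every control and 2 lay within their range. The means were 0.400 ± 0.123 (SD, n = 4) and 0.548 ± 0.115 (SD, n = 5), with an exact permutation p = 0.0952. Il33 over Il1rl1 was 2.57 to 5.37 in controls and 1.09 to 3.17 in Wnk1d/d uteri. Mast cell markers moved with genotype: of 9 tested, 5 were DEGs and all 5 were higher in Wnk1d/d. They were Cpa3, Cma1, Mcpt4 and Tpsab1, which encode granule proteases, and Hdc, the histamine-forming enzyme, which other cells of the uterus also make. Leaving out Wnk1d/d replicate 1, 3 or 5 ended the call of Cpa3 (limma adjusted p = 0.0517, 0.0611 and 0.0523). Cma1 rose from 6.54 ± 0.601 (SD, n = 4) to 12.9 ± 1.42 FPKM (SD, n = 5, log2 fold change 0.88, limma adjusted p = 0.00144). Kit, the stem cell factor receptor, averaged 24.4 and 22.7 FPKM (limma adjusted p = 0.69). The summed level of the list was 183 to 367 FPKM in controls and 375 to 689 in Wnk1d/d uteri. Most of this sum was Hdc, which averaged 176 and 365 FPKM. The part of the mast cell markers in the Il1rl1 values was not tested.

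Il18 was measured at 11.46, 12.90, 15.21 and 15.70 FPKM in controls and at 20.85, 13.44, 13.82, 13.13 and 13.04 in Wnk1d/d uteri. Apart from Wnk1d/d replicate 1, all Wnk1d/d values fell within the range of the controls. The log2 fold change was 0.09 (standard error 0.15, 95% interval -0.24 to 0.41, limma adjusted p = 0.70), and -0.04 without that library. Il18 made up 66.3% of the summed FPKM of the 5 agonists in controls and 59.1% in Wnk1d/d uteri. Il18bp, which encodes a soluble decoy for IL-18, averaged 9.48 and 12.6 FPKM (log2 fold change 0.40, limma adjusted p = 0.13). Tex12 and Bco2 share 4121 and 515 bases with Il18.

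Il1r1 and Il1rap, the receptor chains of interleukin-1, were not DEGs. Il1r1 was at 8.13, 19.13, 14.87 and 14.07 FPKM in controls and at 19.32, 12.22, 8.59, 10.01 and 9.58 in Wnk1d/d uteri, so that the highest library was a Wnk1d/d and the lowest a control. Its log2 fold change was -0.22 (standard error 0.26, 95% interval -0.81 to 0.37, limma adjusted p = 0.57). It was -0.44 without control replicate 1, -0.39 without Wnk1d/d replicate 1, -0.12 without Wnk1d/d replicate 3 and -0.06 without control replicate 2. Il1rap, the accessory chain shared by the receptors of IL-1, IL-33 and IL-36, varied least of all members, at 3.01, 2.56, 3.01 and 3.37 FPKM in controls and 2.36, 3.06, 2.12, 2.01 and 2.26 in Wnk1d/d uteri. In 4 of 5 Wnk1d/d libraries it was below every control, while replicate 2 was above 3 of them. Its log2 fold change was -0.25 (standard error 0.11, 95% interval -0.49 to -0.01, limma adjusted p = 0.12). The limma adjusted p of Il1rap was 0.0316 without Wnk1d/d replicate 2 and 0.043 with library weights, although it was not a DEG in either fit. Without other single libraries it went up to 0.263. The lncRNA gene Gm20319 shares 15447 bases with Il1rap. Il1r2, a decoy receptor, averaged 0.890 and 1.70 FPKM (log2 fold change 0.49, limma adjusted p = 0.086). Il18r1 and Il18rap, the chains of the IL-18 receptor, averaged 1.93 and 1.76 FPKM and 2.01 and 1.49 FPKM, and Sigirr, an inhibitory receptor of the family, averaged 23.7 and 23.3 FPKM. By limma 0 of 7 other family genes tested were DEGs, and Il1f10, Il1rapl1 and Il1rapl2 were at or near 0 in all libraries.

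**Figure D3:**
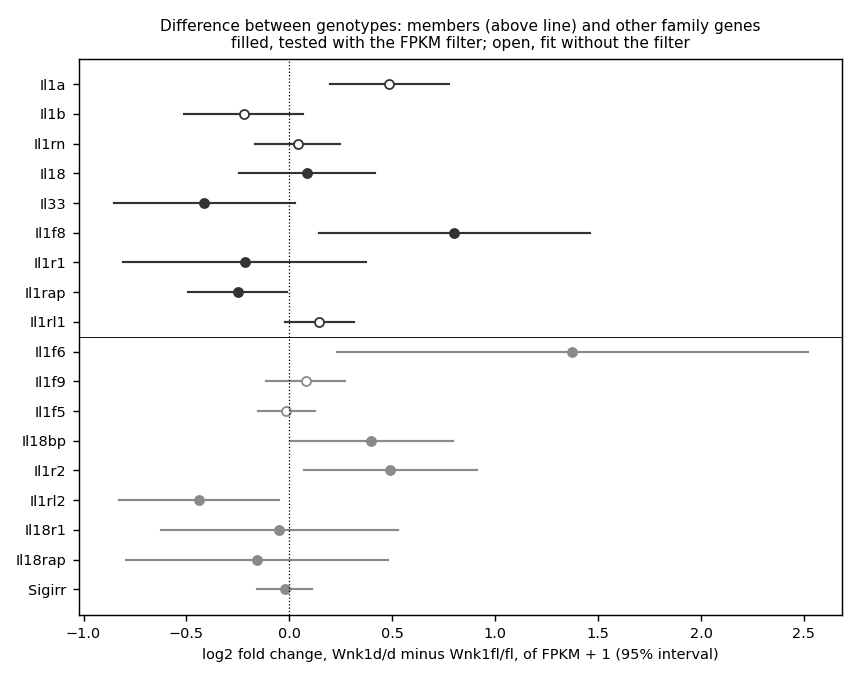
Log2 fold change (Wnk1d/d minus Wnk1fl/fl) of FPKM + 1 with its 95% interval for the 9 members, above the line, and 9 other family genes, below it. Filled points passed the expression filter and open points come from the fit without it. The unadjusted intervals of Il1a, Il1f8, Il1f6, Il1r2 and Il18bp lie above 0 and those of Il1rap and Il1rl2 below it. No gene with a filled point had a limma adjusted p under 0.05. The share of all genes with such an interval was not counted.

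Downstream of the receptors, the signalling chain was tested with 26 genes, of which 1 was a DEG, 3.85% against 10.3% of all genes tested. It was Nfkbia, the NF-kB inhibitor that NF-kB itself induces, at 90.1 ± 3.96 FPKM (SD, n = 4) in controls and 154 ± 22.4 FPKM (SD, n = 5) in Wnk1d/d uteri (log2 fold change 0.76, limma adjusted p = 0.00284). All 5 Wnk1d/d libraries were above all 4 controls. Myd88, the adaptor, was at 33.05 to 77.38 FPKM in controls and 52.12 to 86.24 in Wnk1d/d uteri (log2 fold change 0.52, limma adjusted p = 0.20).

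Among genes that process the ligands or start the inflammasome, 1 of 12 tested was a DEG higher in Wnk1d/d and 1 a DEG lower. That is 16.7% of the list against 10.3% of all genes tested. The adjusted p alone was under 0.05 for 5 of the 12, against 22.1% of all genes tested. Capn2 (higher, limma adjusted p = 0.027), Gsdmd and P2rx7 (lower, limma adjusted p = 0.031 for both) differed by less than 1.5-fold. Nlrp6, an inflammasome sensor of epithelia, was at 1.05 to 1.93 FPKM in controls and 2.59 to 6.88 in Wnk1d/d uteri (log2 fold change 1.02, limma adjusted p = 0.011). Txnip, a thioredoxin-binding protein, fell from 430 ± 131 FPKM (SD, n = 4) to 228 ± 72.9 FPKM (SD, n = 5), a log2 fold change of -0.92 (limma adjusted p = 0.029), and leaving out any of several single libraries ended this call. Casp1, the protease that cleaves pro-IL-1 beta and pro-IL-18, averaged 19.3 and 22.0 FPKM (limma adjusted p = 0.56).

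Of 16 tested genes known to be induced by interleukin-1, 4 were DEGs and all 4 were higher, 25% of the list against 10.3% of all genes tested. The largest difference was in Lcn2, a siderophore-binding protein of epithelia and neutrophils, with 28.2 ± 9.23 FPKM (SD, n = 4) and 269 ± 104 FPKM (SD, n = 5, log2 fold change 3.17, limma adjusted p = 0.00144). Csf3, a growth factor of granulocytes, rose from 7.80 to 31.6 FPKM and the chemokine gene Ccl7 from 2.35 to 7.81 FPKM (limma adjusted p = 0.010 and 0.0070). Cxcl5, a neutrophil chemokine gene, averaged 0.798 and 1.67 FPKM (limma adjusted p = 0.035), and leaving out any of several single libraries ended this call. Ptgs2, the inducible cyclooxygenase, was below the filter, at 0.18 to 0.35 FPKM in controls and 0.39 to 0.95 in Wnk1d/d uteri, without overlap. Other agents also induce these genes. The remaining 12 of the list did not pass, among them Saa3 with 4.96 and 1.85 FPKM. Neutrophil markers were low, with a summed level of 1.96 to 9.23 FPKM in controls and 2.42 to 7.28 in Wnk1d/d uteri, 0 of 2 tested being DEGs and S100a8 at 0.14 to 1.59 FPKM over all libraries. Of 10 macrophage markers, 1 was a DEG (Cd14, higher), and the summed levels overlapped (364 to 646 and 415 to 567 FPKM). Emr1, of the same list, averaged 10.8 and 8.10 FPKM (limma adjusted p = 0.43).

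**Figure D4:**
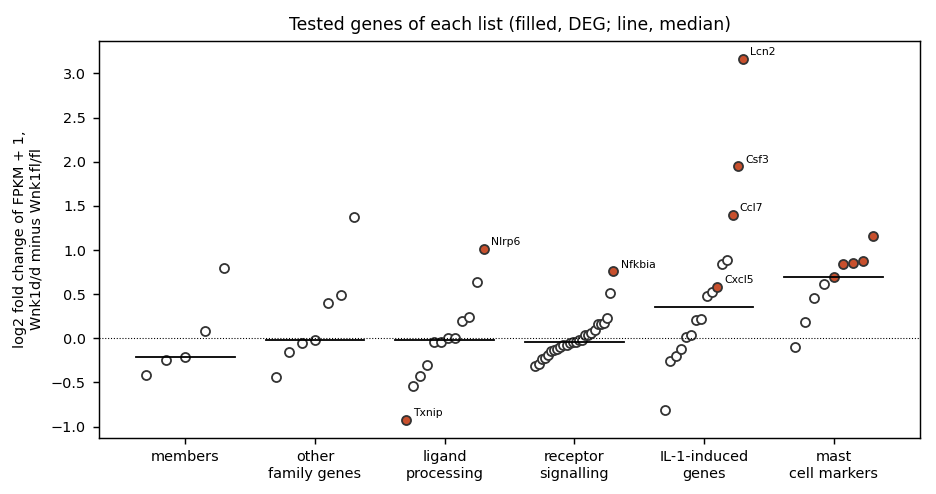
Log2 fold change (Wnk1d/d minus Wnk1fl/fl) of FPKM + 1 for each tested gene of 6 lists, with DEGs filled and a line at the median of each list. No member and no other family gene is a DEG, while the lists of IL-1-induced genes and mast cell markers hold 4 and 5 DEGs, all above 0 (unlabelled for mast cells).

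The targeted gene, Wnk1, averaged 45.3 ± 1.62 FPKM (SD, n = 4) in controls and 31.2 ± 1.62 FPKM (SD, n = 5) in Wnk1d/d uteri (limma adjusted p = 0.0017), without overlap. The ratio of means was 0.690, a difference of less than 1.5-fold, so that Wnk1 was not a DEG. These values are of the whole gene, and the removed exon 2 was not measured alone. Single libraries stood apart in other respects. Control replicate 4 carried 186.6 FPKM of 10 liver markers against 8.76 to 28.4 in the other libraries. The liver marker Alb was at 77.65 FPKM there and at 0.03 to 1.5 FPKM in the others. Without control replicate 4, Il1f8 had a log2 fold change of 0.63 (limma adjusted p = 0.19) and Il1a an exact permutation p = 0.0357. In Wnk1d/d replicate 4, 1 entry held 70.3% of the summed FPKM, while the median log2 value of tested genes was 3.795 to 3.822 in all 9 libraries. Among all libraries Wnk1d/d replicate 1 was the highest for 5 of the 9 members and control replicate 1 the lowest for 4. Of 10 smooth muscle markers all 10 were DEGs and higher in Wnk1d/d, and the part of tissue composition in the members' values was not tested.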

How the data were processed

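Total RNA of whole uteri was extracted with TRIzol and sequenced as paired-end reads, per the labels and the study's methods. Alignment by the authors was to mm10 with TopHat2 2.0.4. By the labels they computed FPKM with Cufflinks 2.0.2, while the study's methods name a later Cufflinks version for differential expression. They deposited 1 FPKM table with a column for each of 9 libraries, not pooled. The annotation behind it is not given in the sources used here. Fragment counts, and so depth, are unknown. The relative worth of 1 fragment was read from steps in low FPKM values with 29 filters, all tried after the values were seen and none preferred: 27 gave a value, with the largest worth over the smallest across libraries between 1.11 and 1.39 (16 to 343 entries), and no result rests on it.

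Genes with mean FPKM above 1 in either genotype were compared on log2(FPKM + 1) by limma 3.58.1 (R 4.3.3, trend, unpaired), a scale that understates changes of low genes. The limma step was tested on simulated data. Exact permutation tests enumerated 126 splits. Members, lists and tests were chosen with earlier results of these data known. All members and other family genes are named. Named too are the DEGs of the processing, signalling and IL-1-induced lists, Myd88, Casp1, Ptgs2, Wnk1 and the defining cell markers. Those markers are Emr1, S100a8, Cpa3, Krt8, Krt5, Cdh5 and Alb. Kit, Saa3, Cma1, Hdc, Mcpt4, Tpsab1, Cd14, Krt10, Krt14, Trp63, Lum, Col1a1, Pdgfra, Hoxa11, Capn2, Gsdmd and P2rx7 were added after their values were seen. Each library is 1 mouse. Alternatives were other pseudocounts, filters, scalings, limma settings, fold criteria, a replicate block and leaving out each library. Upstream sequences and positions are from RefSeq on GRCm38.p6, which matched all 9 members. Proteins and the neutrophil marker Ly6g were not analysed here.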

Additional observations from a re-analysis of the deposited data

Results flagged for a closer look

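In 6 of 63 groups of libraries 1 library stood apart from the rest by Dixon's criterion. Chance meets it in about 1 in 20 groups of normally spread values. A single value above 0 among values of 0 always meets it, as with Il1f10 and Il1rapl2 below, so the count cannot be set against that rate. Il18 was 20.85 FPKM in Wnk1d/d replicate 1 against 13.04 to 13.82 in the other Wnk1d/d uteri. In the same library Casp1 was 32.49 FPKM against 18.04 to 21.07, and Nfkbia was 192.7 FPKM against 136.9 to 151.3. Il33 was 2.74 FPKM in Wnk1fl/fl replicate 3 against 1.26 to 1.31 in the other controls. Il1f10 was listed at 0.07 FPKM in Wnk1d/d replicate 3 and Il1rapl2 at 0.02 FPKM in Wnk1fl/fl replicate 4, each against 0 in the rest of its group.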

How the results depend on the processing

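The count of members called higher, 0, became 1 without the filter (Il1a) and ranged from 0 to 1 when each library was left out (Il1f8 without Wnk1fl/fl replicate 3); no member was called lower in any fit. Other family genes called higher rose from 0 to 1 with library weights (Il1r2) and ranged from 0 to 1 over the left-out libraries (Il1r2 without Wnk1d/d replicate 2, Il1f6 without Wnk1d/d replicate 5). Processing genes called higher numbered 1, and 2 without a fold criterion, 0 with a filter at 5 FPKM and 1 to 2 over the left-out libraries. Those called lower numbered 1, and 0 at a ratio of at least 2, 3 without a fold criterion and 0 to 2 over the left-out libraries, where Txnip was lost without Wnk1fl/fl replicate 1 or 4 or Wnk1d/d replicate 1, 3, 4 or 5. The signalling list had 1 higher and 0 lower, and 0 higher at a ratio of at least 2 and 1 lower without a fold criterion. IL-1-induced genes called higher numbered 4, and 3 to 4 over the left-out libraries, Cxcl5 being lost without Wnk1fl/fl replicate 1 or 2 or Wnk1d/d replicate 1, 3, 4 or 5. The cause was not tested. The antagonist's mean log2 ratio differed by -1.604 with Il1a alone, 0.657 with Il1b alone and, for their sum, by -0.306 to 0.241 over the left-out libraries.

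Replicate numbers of the genotypes belong to different mice, and deviations of same-numbered libraries correlated at -0.268 to 0.022. With a replicate block, DEGs of all genes numbered 218 against 1513, with 0 processing genes higher and 0 lower, 0 signalling genes higher and 1 IL-1-induced gene higher. Without single libraries all DEGs numbered 1019 to 1870.

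Directions turned for values near 0: Il18 (-0.036 without Wnk1d/d replicate 1), Il18r1 (0.002 with library weights, and 0.004, 0.013, 0.101 and 0.053 without Wnk1fl/fl replicates 2, 3 and 4 and Wnk1d/d replicate 4), Il18rap (0.141 without Wnk1fl/fl replicate 4), Sigirr (0.010 without Wnk1fl/fl replicate 2), Casp1 (-0.032 without Wnk1fl/fl replicate 1) and Il1rn (-0.016 and -0.023 without replicate 1 of either genotype). The log2 differences over the left-out libraries reached 0.146 for Il18, -0.314 for Il18r1, -0.376 for Il18rap, -0.047 for Sigirr, 0.322 for Casp1 and 0.090 for Il1rn at their other ends. The exact permutation p of Il1a was 0.0571 without any 1 of Wnk1d/d replicates 1 to 4, where this test cannot go below 0.0286. Il1a, Il1b, Il1rn and Il1rl1 are below 1 FPKM, and without counts the error of such values is unknown.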
